A study of Mus musculus with 8 samples.

Results

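The endocannabinoid system is described here by 9 genes, chosen by name and function, of the 15437 genes in the table. They are Cnr1, which encodes the cannabinoid receptor CB1, Cnrip1, which encodes a protein that binds the tail of CB1, the synthesis genes Dagla, Daglb and Napepld, and the breakdown genes Mgll, Abhd6, Abhd12 and Faah. RNA-Seq was performed on the temporal association cortex (TeA), an auditory area that projects to the amygdala, to find what activated neurons express after fear learning. All 8 libraries came from male C57BL/6 mice, postnatal day 60 to 90 and Arc-dVenus +/-, killed 6 h after behavior. Their transgene puts a destabilized Venus fluorophore under the promoter of Arc, an activity-regulated gene, so that a cell counts as activated only if that promoter was. Fear conditioned (FC) mice heard 7 tones (10 s, 6 kHz), each paired with a footshock (1 s, 0.5 mA), and shock-only mice received 7 footshocks and no tone. From 3 FC and 2 shock-only mice, Arc-dVenus+ cells were aspirated by hand from dissociated TeA and pooled, 1 pool per animal, and 1 FC and 2 shock-only mice gave bulk tissue. Slices for both kinds of library were treated with protease before TeA was cut out. The pools carry the numbers 39, 40 and 23 (FC) and 30 and 33 (shock only) in their titles and are named by these numbers below. One account of the experiment gives these as the cells in each pool, and the extraction text gives a higher range. No library of cells without the reporter and no unshocked mouse enters the comparison.

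Endocannabinoids are lipids made on demand from membrane phospholipids. In the textbook scheme, strong activity of a postsynaptic neuron drives the synthesis of 2-arachidonoylglycerol (2-AG) by diacylglycerol lipases, 2-AG travels back to the presynaptic terminal, and CB1 there reduces transmitter release. Anandamide is the other main endocannabinoid and has its own enzymes. In cortex, CB1 is known to be densest on the terminals of cholecystokinin (CCK) interneurons and sparser on those of pyramidal neurons.

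Total counts were 10223586 to 24151755 in the 5 Arc-dVenus+ libraries and 7110598 to 9846374 in the 3 bulk-tissue libraries. All libraries carry the label cortical neurons, but the bulk libraries held markers of other cells. Levels below are CPM, a gene's counts in a library scaled to a total of 1000000. The summed level of 9 inhibitory neuron markers was 34.1 to 43.4 CPM in the pools and 722 to 729 CPM in bulk tissue, with Dlx1 at 0 in every pool. Most of the sum in the pools was 1 gene, Gad2, at 32.1 to 40.6 CPM, whereas Gad1 was at 0 to 0.300 CPM. Summed markers of CCK and related interneurons were 2.73 to 10.5 CPM against 101 to 113 CPM. Astrocyte markers summed to 953 to 1563 CPM in the pools and 8599 to 9866 CPM in bulk tissue. Microglial markers summed to 0.497 to 66.5 CPM against 222 to 273 CPM. Of these C1qa was at 0 in every pool, but others reached bulk levels in single pools. C1qb was at 29.6 CPM in pool 33 (19.7 to 32.1 CPM in bulk tissue). Itgam was at 26.3 CPM in pool 23 (24.7 to 48.7 CPM in bulk tissue). Oligodendrocyte, oligodendrocyte precursor and endothelial lists were lower in sum in all 5 pools than in all 3 bulk libraries. The sum of the 7 excitatory markers was higher, 3526 to 4367 CPM against 2192 to 2395 CPM, but not every marker was higher in every pool. Neurod6 was at 12.1 CPM in pool 40 and 18.0 CPM in pool 33, under the 19.8 to 33.2 CPM of bulk tissue. Neurod2 was at 51.7 CPM in pool 23 and 31.8 CPM in pool 33, under the 74.2 to 86.6 CPM of bulk tissue. In the other pools both were above bulk tissue. The part of these differences in the results below was not tested.

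Of the 9 genes, Cnr1 fell and Cnrip1 rose in the sorted cells relative to bulk tissue, and the other 7 did not pass it. The test was edgeR's quasi-likelihood test on the counts, scaled by TMM. Its p-values were adjusted by Benjamini-Hochberg over all 12493 genes whose CPM summed to 20 or more in the 8 libraries, and a call needed an adjusted p under 0.05 and a change of at least 2-fold. All 9 genes met the minimum, with 161 to 7145 counts per library. Thus 2 of 9 genes were called, where 9.71% of all genes tested were: 1 of 9 rose, where 3.13% of all did, and 1 of 9 fell, where 6.58% did, counts too small to set the group apart from other genes. The log2 fold change was above 0 for 7 of 9 genes, against 54.7% of all genes, and its median was 0.68, against 0.10 for all genes. In 1 gene (Cnrip1) every pool lay above every bulk library, which held for 5.97% of all genes, and in 2 genes (Cnr1 and Mgll) every pool lay below, which held for 21.4%. Together 3 of 9 did not overlap, where 27.4% of all genes did not. In bulk samples, fewer cells of a type and less RNA per cell cannot be told apart. Scaling by library size alone, without TMM, moved the median of all genes by -0.26 on the log2 scale and changed their calls from 391 rose and 822 fell to 145 rose and 1024 fell. It turned the direction of none of the 9 genes.

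**Figure D1:**
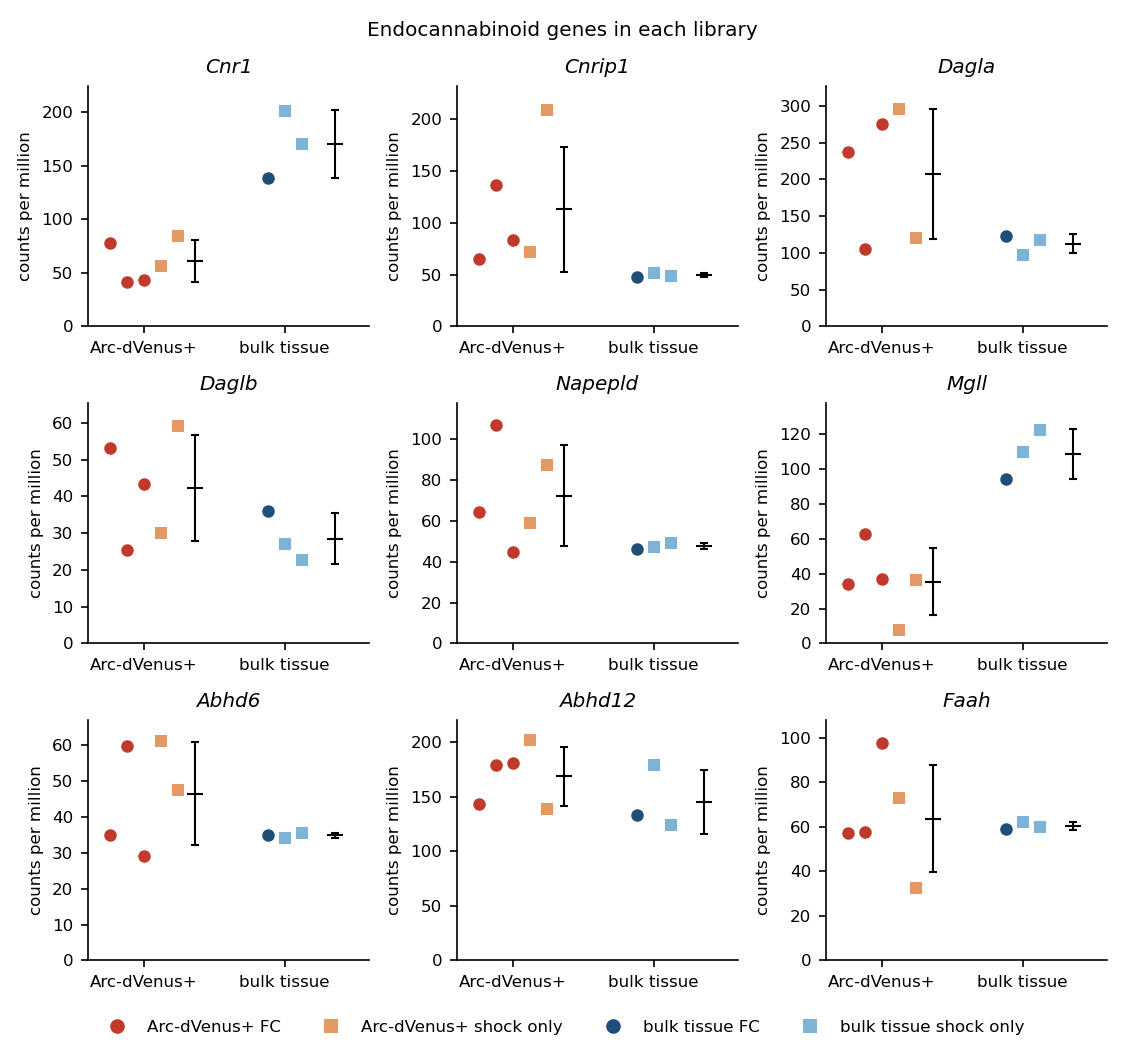
Level of each of the 9 genes in CPM (y axis, from 0) in the 5 Arc-dVenus+ pools and the 3 bulk-tissue libraries, with circles for FC, squares for shock only, and the mean and SD in black. All Cnr1 and Mgll values of the pools lie under those of bulk tissue, all Cnrip1 values lie above, and the other genes overlap.

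The 5′ ends of Cnr1, Cnrip1 and Mgll are shown because these were the genes whose groups did not overlap. Each window runs from 250 bases before to 50 bases after a RefSeq transcript start, on the plus strand of GRCm38.p6, a later build than the mm9 of the counts. Capitals mark the half-site of the activity-dependent factor CREB (TGACG, or CGTCA on the other strand) and the GC box bound by Sp factors (GGGCGG or CCGCCC).
Cnr1, chr4:33924014-33924313: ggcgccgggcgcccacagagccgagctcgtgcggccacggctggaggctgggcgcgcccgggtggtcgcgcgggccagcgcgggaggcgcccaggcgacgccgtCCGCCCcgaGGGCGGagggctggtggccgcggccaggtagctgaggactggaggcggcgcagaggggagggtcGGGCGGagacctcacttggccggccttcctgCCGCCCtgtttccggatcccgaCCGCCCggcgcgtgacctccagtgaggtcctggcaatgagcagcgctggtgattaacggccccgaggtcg
Cnrip1, chr11:17051609-17051908: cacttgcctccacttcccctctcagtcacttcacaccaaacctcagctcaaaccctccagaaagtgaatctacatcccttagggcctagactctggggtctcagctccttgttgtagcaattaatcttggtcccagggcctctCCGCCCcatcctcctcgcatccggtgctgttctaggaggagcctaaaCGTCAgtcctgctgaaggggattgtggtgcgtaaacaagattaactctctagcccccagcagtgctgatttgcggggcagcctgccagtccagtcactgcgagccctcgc
Mgll, chr6:88724162-88724461: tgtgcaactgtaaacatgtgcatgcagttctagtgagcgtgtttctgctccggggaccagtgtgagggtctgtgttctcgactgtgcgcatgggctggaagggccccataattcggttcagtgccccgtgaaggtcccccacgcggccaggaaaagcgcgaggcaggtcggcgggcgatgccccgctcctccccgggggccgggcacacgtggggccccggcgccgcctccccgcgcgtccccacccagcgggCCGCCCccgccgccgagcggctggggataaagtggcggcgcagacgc
The Cnr1 window held 5 GC boxes and no CREB half-site, with 40 CpG dinucleotides and a GC content of 76.3%. The Cnrip1 window held 1 half-site, which starts 60 bases before the transcript start, 1 GC box and 8 CpG. The Mgll window held 1 GC box, 32 CpG and no half-site. Of all 32851 windows, 20.8% held a CREB half-site and 35.7% a GC box, and the median window had 7 CpG. A match of these letters is a description and not a binding site. RefSeq gives Cnr1 and Mgll further starts, and only the first on the strand is printed. The windows of the other starts differed: both further Cnr1 windows held no GC box and no half-site, and the other Mgll window (chr6:88724454-88724753) held 1 GC box and 1 half-site. Windows were matched for 7 of the 9 genes, and Dagla and Abhd12 were not matched.

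Cnr1 (chr4:34011568-34035806 in mm9, plus strand, 2 exons) encodes CB1, the receptor that 2-AG and anandamide act on in brain. Its level was 77.9, 41.6 and 43.4 CPM in FC pools 39, 40 and 23, and 56.6 and 84.5 CPM in shock-only pools 30 and 33. Bulk tissue held 138 CPM in the FC library and 201 and 171 CPM in the shock-only libraries. Every pool was therefore below every bulk library, with a gap between 84.5 and 138 CPM. Means were 60.8 ± 19.6 CPM (SD, n = 5) and 170 ± 31.5 CPM (SD, n = 3). Cnr1 fell by 1.23 on the log2 scale (SE 0.28, 95% interval -1.85 to -0.61), a 2.35-fold lower level, with an adjusted p of 0.0152 in edgeR's quasi-likelihood test. Among all genes tested, it stood at the percentile 71.1 of level in the median pool (65.4 in the lowest) and 90.6 in the median bulk library. These ranks are of CPM, without regard to transcript length. The call was lost in the shock-only libraries alone (-1.05, adjusted p = 0.155) and without bulk shock-only library 1 (-1.10, adjusted p = 0.102) or 2 (-1.22, adjusted p = 0.0702), all by edgeR. CCK and related interneuron markers and inhibitory markers were lower in the same direction. Pool 33, the highest in Cnr1, had the highest inhibitory sum (43.4 CPM, mostly Gad2) and the highest sum of CCK and related markers (10.5 CPM). The latter sum was made up of Slc17a8 (6.06 CPM) and Adarb2 (4.40 CPM). Pool 39, the next highest in Cnr1, had the lowest inhibitory sum (34.1 CPM, mostly Gad2). Its sum of CCK and related markers was 6.11 CPM, the median of the pools, and 5.82 CPM of it was Slc17a8. The part of these interneurons in the Cnr1 result was not tested.

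Cnrip1 (chr11:16951589-16979374, plus strand, 3 exons) encodes the CB1-interacting protein, which binds the receptor's C-terminal tail. The FC pools held 64.8, 137 and 84.0 CPM and the shock-only pools 72.0 and 209 CPM. Bulk tissue held 47.9, 51.9 and 48.7 CPM, a narrow range that lay under every pool. Cnrip1 rose by 1.45 on the log2 scale (SE 0.40, 95% interval 0.56 to 2.35), 2.74-fold, with an adjusted p of 0.0386 by edgeR. The receptor and its binding protein thus differed in opposite directions in the same libraries. The 2 highest pools, FC 40 and shock-only 33, set much of the mean of 113 ± 60.5 CPM (SD, n = 5), against 49.5 ± 2.12 CPM (SD, n = 3). Without pool 33 the log2 fold change was 1.11 (adjusted p = 0.0367 by edgeR), and the call stood. The call was lost, with a log2 fold change of about the same size or larger, without pool 40 (1.38, adjusted p = 0.0720), without any 1 bulk library (1.43 to 1.48, adjusted p = 0.135 to 0.162) and in the shock-only libraries alone (1.84, adjusted p = 0.177), all by edgeR. It was also lost with library size alone (1.19, adjusted p = 0.0862 by edgeR) and with limma-voom (1.19, adjusted p = 0.164). In GENCODE M1, 199 exon bases of Cnrip1 overlap those of Plek, a gene of microglia and of blood cells on the opposite strand. Whether reads were counted by strand is not given in the sources used here. Plek had 1.41 to 7.74 CPM in the pools and 20.3 to 23.1 CPM in bulk tissue, the direction opposite to that of Cnrip1. The part of Plek reads in the Cnrip1 result was not tested.

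**Figure D2:**
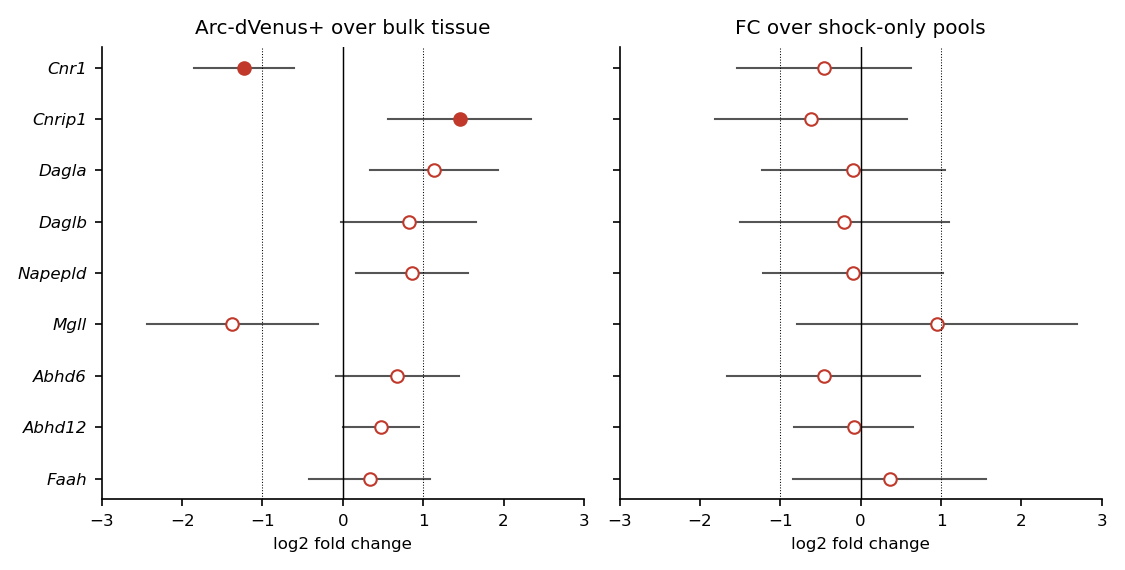
Log2 fold changes (x axis) of Arc-dVenus+ pools over bulk tissue (left) and of FC over shock-only pools (right) for each gene, with 95% intervals as lines and dotted lines at 2-fold. Filled points passed the test (Cnr1 at -1.23 and Cnrip1 at 1.45), and no gene passed it on the right.

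Dagla (chr19:10319755-10379367, minus strand, 20 exons) encodes the diacylglycerol lipase that makes most 2-AG in adult brain. Pools 39, 40 and 23 held 237, 106 and 276 CPM, and pools 30 and 33 held 296 and 120 CPM, against 123, 97.7 and 118 CPM in bulk tissue. The pools thus fell into 3 with levels well above bulk tissue and 2 (FC 40 and shock-only 33) within its range. Dagla was 2.20-fold higher by the fit (log2 1.14, SE 0.36, 95% interval 0.34 to 1.93) and did not pass the adjusted test (adjusted p = 0.0664, edgeR's quasi-likelihood test). It passed with edgeR's exact test (adjusted p = 0.0253), with DESeq2 (0.00427), and without FC pool 40 (1.30, adjusted p = 0.0241) or shock-only pool 33 (1.28, adjusted p = 0.0327). The 2 pools with low Dagla were the 2 with high Cnrip1.

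Daglb (chr5:144225361-144265310, plus strand, 15 exons) encodes the related lipase, best known from microglia and macrophages. Its levels were 53.3, 25.5 and 43.4 CPM in the FC pools, 30.0 and 59.3 CPM in the shock-only pools and 36.0, 27.0 and 22.6 CPM in bulk tissue, so the groups overlapped. The log2 fold change of 0.82 (95% interval -0.02 to 1.66) had an adjusted p of 0.212 by edgeR, and the interval reaches from no change to over 3-fold. Pool 40 was low in both lipases, whereas pool 33 was low in Dagla and highest in Daglb.

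Napepld (chr5:21168719-21207214, minus strand, 5 exons) encodes the phospholipase D that releases anandamide and related amides from membrane precursors. It had 64.2, 107 and 44.7 CPM in the FC pools, 58.8 and 87.5 CPM in the shock-only pools and 46.2, 47.4 and 49.2 CPM in bulk tissue. In 4 of 5 pools it lay above every bulk library, and pool 23 lay below them. The log2 fold change was 0.86 (95% interval 0.16 to 1.56) with an adjusted p of 0.111 by edgeR.

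Mgll (chr6:88674406-88778354, plus strand, 8 exons) encodes monoacylglycerol lipase, which breaks down most 2-AG in brain and is found in presynaptic terminals and in astrocytes. Its level was 33.9, 62.5 and 36.7 CPM in the FC pools and 7.83 and 36.2 CPM in the shock-only pools. Bulk tissue held 94.2, 110 and 123 CPM, and no pool came near these values. Of the 9 genes Mgll had the largest spread between pools, with a coefficient of variation of 54.7%, and pool 30 was its low value. The means were 35.4 ± 19.4 CPM (SD, n = 5) and 109 ± 14.3 CPM (SD, n = 3). The fitted log2 fold change was -1.37 (SE 0.48, 95% interval -2.44 to -0.31), a 2.59-fold lower level, which missed the threshold with an adjusted p of 0.0950 in edgeR's quasi-likelihood test. It passed with edgeR's exact test (adjusted p = 0.0384), DESeq2 (0.0415) and limma-voom (-1.77, adjusted p = 0.0487), and without FC pool 40 (-1.68, adjusted p = 0.0481) or shock-only pool 30 (-1.02, adjusted p = 0.0403). Astrocyte markers were lower in the pools too, 953 to 1563 against 8599 to 9866 CPM in sum. Most of the sum in each pool was 1 gene, Slc1a2, at 839 to 1418 CPM. Pool 30, lowest in Mgll, had the highest sum (1563 CPM), and pool 40, highest in Mgll, had the lowest (953 CPM). Single markers ordered the pools differently: among the pools, pool 30 was highest in Aqp4 (4.39 CPM) and lowest in Slc1a3 (2.36 CPM). The part of astrocytes in the Mgll result was not tested. The antisense lincRNA Gm16628 shares 90 exon bases with Mgll.

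Abhd6 and Abhd12 encode the other 2 hydrolases of 2-AG, and neither passed the test. Abhd6 (chr14:8835416-8889069, plus strand, 9 exons), which acts at postsynaptic membranes, had 35.1, 59.7 and 29.0 CPM in the FC pools, 61.0 and 47.3 CPM in the shock-only pools and 34.9, 34.0 and 35.6 CPM in bulk tissue. Its bulk values were nearly equal, and the pools lay on both sides of them (log2 fold change 0.68, 95% interval -0.09 to 1.44, adjusted p = 0.266 by edgeR). Abhd12 (chr2:150658229-150730477, minus strand, 13 exons), which also cleaves lysophosphatidylserine, had 144, 179 and 181 CPM in the FC pools, 202 and 139 CPM in the shock-only pools and 133, 179 and 124 CPM in bulk tissue. It was the steadiest of the 9 genes across pools, with a coefficient of variation of 15.9%. Its log2 fold change was 0.47 (95% interval 0.00 to 0.95, adjusted p = 0.199 by edgeR). Changes of 2-fold lay outside this interval.

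Faah (chr4:115639750-115690531, minus strand, 15 exons) encodes the hydrolase that ends anandamide signalling. It had 57.4, 57.9 and 97.7 CPM in the FC pools, 72.9 and 32.4 CPM in the shock-only pools and 59.0, 62.3 and 59.8 CPM in bulk tissue. The pools scattered around the bulk values, with 2 above and 3 below all of them. The log2 fold change of 0.34 was the smallest of the 9 (95% interval -0.42 to 1.09, adjusted p = 0.629 by edgeR).

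**Figure D3:**
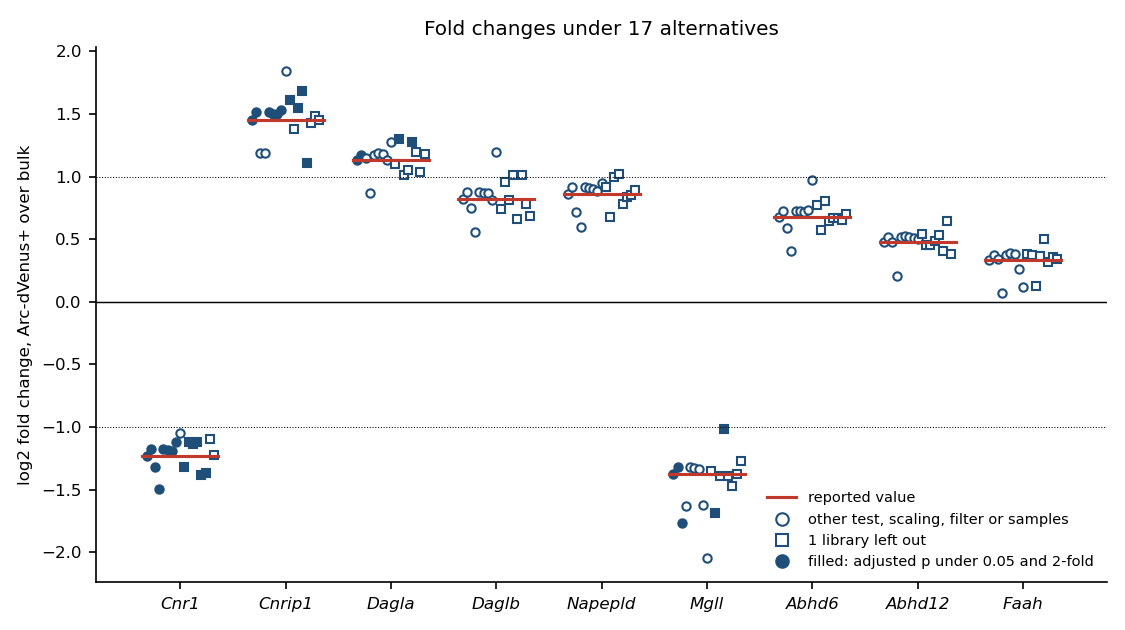
Log2 fold change of Arc-dVenus+ over bulk tissue (y axis) for each gene under 17 alternatives, with circles for other tests, scalings, filters or samples, squares for 1 library left out, a red line for the reported value and filled symbols where the test was passed. No gene changed sign, and filled and open symbols are mixed for Cnr1, Cnrip1, Dagla and Mgll.

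The spread between pools was larger than that between bulk libraries in 8 of 9 genes. The median coefficient of variation was 34.4% in the pools and 11.8% in bulk tissue. Over the 5018 genes in the same range of bulk levels, the medians were 38.4% and 9.30%, so a larger spread between pools was no property of the endocannabinoid genes alone. No pool stood apart in all genes. Pool 40 was the lowest in Cnr1, Dagla and Daglb and the highest in Mgll and Napepld, while pool 33 was the highest in Cnr1, Cnrip1 and Daglb and the lowest in Faah and Abhd12.

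Levels were set side by side per kilobase of the longest coding transcript in GENCODE M1, since a longer transcript gives more reads. In the pools, Abhd12 was highest at 84.5 ± 13.4 CPM per kb (SD, n = 5) and Cnrip1 followed at 68.5 ± 36.6. Dagla (36.7 ± 15.7), Abhd6 (23 ± 7.10), Napepld (18.3 ± 6.25) and Faah (16.6 ± 6.26) came next, and Daglb (13.2 ± 4.52), Cnr1 (10.5 ± 3.38) and Mgll (8.88 ± 4.85) were lowest. Each gene overlapped its neighbours in this order. In bulk tissue Abhd12 was again highest at 72.8 ± 14.8 CPM per kb (SD, n = 3), above all other genes in each library. Cnrip1 (29.9 ± 1.28), Cnr1 (29.3 ± 5.43) and Mgll (27.3 ± 3.58) overlapped one another and lay above Dagla (20.0 ± 2.36) and Abhd6 (17.3 ± 0.388), which overlapped. Faah (15.8 ± 0.444), Napepld (12.04 ± 0.390) and Daglb (8.88 ± 2.12) followed with no overlap between neighbours. Cnr1 and Mgll thus stood high in the bulk order and last in that of the pools. The order depends on the transcript: with its shortest coding transcript Mgll had 34.3 CPM per kb in the pools and 105 in bulk tissue. Cnrip1 with its shortest had 133 in the pools, above the 84.5 of Abhd12, and 58.2 in bulk tissue.

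Ratios between pairs of these genes within a library do not depend on how libraries are scaled. Of the 4 pairs, Mgll to Dagla and Napepld to Faah set breakdown against synthesis, and the other 2 set enzymes of one step against each other. There were 0.143, 0.592 and 0.133 Mgll counts per Dagla count in FC pools 39, 40 and 23, and 0.0265 and 0.301 in shock-only pools 30 and 33. Bulk tissue had 0.767, 1.12 and 1.04, so all 5 pools had fewer Mgll reads for each Dagla read than all 3 bulk libraries. The mean log2 ratio was 2.64 lower, with a value of -2.69 ± 1.67 (SD, n = 5) against -0.05 ± 0.29 (SD, n = 3), a 6.22-fold difference. The exact two-sided permutation test gave p = 0.0357, the smallest that 5 against 3 libraries allow, and 0.143 after adjustment over the 4 pairs compared. A single pair that separates cannot reach a lower adjusted value in this design, so the adjusted test could not have called it alone. The other 3 pairs overlapped between groups: Dagla to Daglb differed by 0.24 on the log2 scale (exact permutation p = 0.643), Abhd6 to Abhd12 by 0.14 (p = 0.679) and Napepld to Faah by 0.55 (p = 0.429).

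**Figure D4:**
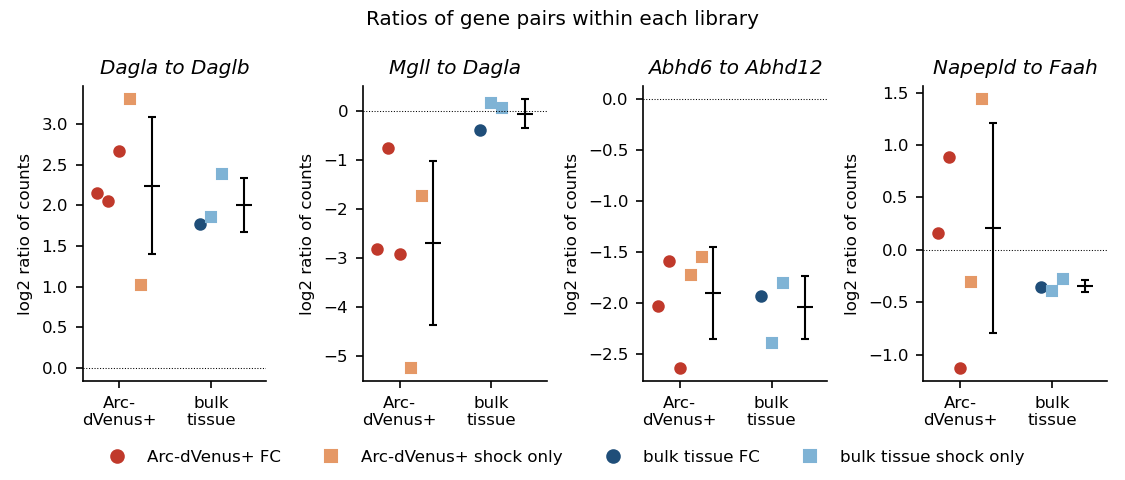
Log2 ratio of counts (y axis) for 4 pairs of genes in each Arc-dVenus+ pool and bulk library, with circles for FC, squares for shock only and the mean and SD in black. The groups separate for Mgll to Dagla, -2.69 in the pools and -0.05 in bulk tissue on average, and overlap for the other pairs.

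The 3 hydrolases of 2-AG were also set against each other as shares of their summed level per kilobase of the longest coding transcript. Mgll made up 1.47 to 11.6% of the sum in the pools and 20.5 to 27.8% in bulk tissue, ranges that did not overlap. Abhd6 made up 12.6 to 23.03% against 12.6 to 16.1%, and Abhd12 66.5 to 79.3% against 56.3 to 66.9%. With these transcripts Abhd12 was the most abundant of the 3 in every library. This order depends on the transcript too: with its shortest one Mgll had 105 CPM per kb in bulk tissue, above the 72.8 of Abhd12, and 34.3 in the pools, below the 84.5 of Abhd12. The shares are of RNA and not of enzyme activity.

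The comparison of FC with shock-only pools asked whether tones paired with the shock altered these genes in activated cells. Shock-only mice heard no tone, so the pairing and the tones themselves cannot be told apart here. None of the 9 genes passed edgeR's quasi-likelihood test, edgeR's exact test or DESeq2, and none had an unadjusted p under 0.05. Over the 12453 genes tested the quasi-likelihood test called 0.0%, with 6.37% at an unadjusted p under 0.05, the exact test 0.0562% and DESeq2 1.18%. The FC and shock-only pools overlapped in all 9 genes, where 21.3% of all genes did not overlap. The gene with the smallest adjusted p was Mgll, with 44.4 ± 15.8 CPM (SD, n = 3) in FC and 7.83 and 36.2 CPM in shock-only pools. Its log2 fold change was 0.96 (95% interval -0.79 to 2.70, adjusted p = 0.862 by edgeR). The size of this value hung on the shock-only pools: it was 0.24 without pool 30 and 2.43 without pool 33, where the lone shock-only pool is assumed to vary like the FC pools. Intervals spanned 1.47 to 3.48 on the log2 scale from end to end: that of Cnr1 was -1.54 to 0.63 and that of Dagla -1.23 to 1.05, so that changes of 2-fold in either direction were not excluded for Dagla. The narrowest was that of Abhd12, -0.82 to 0.65, within 2-fold on both sides. Whether the difference between sorted cells and bulk tissue depended on the tone was tested as an interaction, and none of the 9 genes passed by edgeR, adjusted or unadjusted. Of all genes, 0.0% passed the adjusted threshold and 2.47% had an unadjusted p under 0.05, and among the 9 the largest estimate was that of Mgll (log2 1.30, SE 1.04). Bulk FC had 1 library, whose spread was taken from the other groups.

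Lists of genes that act around these 9 were counted in the same fit of sorted cells against bulk tissue. Of 52 genes on 5 lists, 44 were tested, 4 rose and 6 fell, and the median log2 fold change was 0.33. Over all genes tested 3.13% rose, 6.58% fell and the median was 0.10, and the counts of each list below, of 4 to 14 genes, stand beside these shares. With library size alone 2 of the 44 rose and 9 fell, where 145 of 12493 genes rose and 1024 fell, and with RLE factors 6 rose and 5 fell, where 470 and 789 of all genes did. Nothing is read from the lists as particular to them. Of 4 tested receptors other than CB1, 2 fell and none rose, with a median of -1.81. Cnr2, which encodes CB2, the cannabinoid receptor of immune cells, fell by 1.40 on the log2 scale (15.7 against 49.5 CPM, adjusted p = 0.0223 by edgeR). Ppara, a nuclear receptor for acyl amides, was at 0 in 4 pools and 0.0751 CPM in the other, against 6.47 to 7.99 CPM in bulk tissue.

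Among 11 other enzymes and carriers 1 rose and 3 fell, with a median of -1.47, and with library size alone 5 fell. Ptgs2, which encodes cyclooxygenase 2, an activity-induced enzyme that also oxidizes 2-AG and anandamide, rose by 2.51 on the log2 scale (196 against 41.3 CPM, adjusted p = 0.000597 by edgeR). Those that fell were Fabp7, known from glia, and Fabp5, which encode fatty acid binding proteins that can carry anandamide, and the lipoxygenase Alox12 (log2 fold changes -2.97, -1.76 and -3.55). Of 9 genes that drive 2-AG synthesis downstream of glutamate and acetylcholine, none passed at 2-fold, and the median was 0.46. Grm5 (0.81), Plcb1 (0.90) and Chrm3 (0.93), which encode a glutamate receptor, a phospholipase C and a muscarinic receptor, had adjusted p under 0.05 by edgeR but were under 2-fold. With library size alone Chrm3 had a log2 fold change of 0.66 and an adjusted p of 0.153.

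Of 14 effectors of CB1, 1 rose and none fell, with a median of 0.63. The count was 0 risen and 1 fallen with library size alone, and 3 risen with RLE factors. The gene that rose was Gnai1, an inhibitory G protein subunit (log2 1.11, 577 against 320 CPM, adjusted p = 0.00121 by edgeR), and with library size alone it was under 2-fold (0.84). Of 6 partners of CB1, 2 rose and 1 fell, with a median of 0.64. Sgip1, which encodes a protein that slows the internalization of CB1, rose by 1.10 on the log2 scale and was under 2-fold with library size alone (0.84). The antisense transcript Gm12709 shares 469 exon bases with Sgip1. Wasf1, which encodes a regulator of actin that CB1 can bind, rose by 1.32. Arrb1, which encodes a beta-arrestin that desensitizes receptors, fell by 1.02 and was under 2-fold with RLE factors (-0.97). Of the 6 partners 5 had a log2 fold change above 0, and Arrb1 was the one below.

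**Figure D5:**
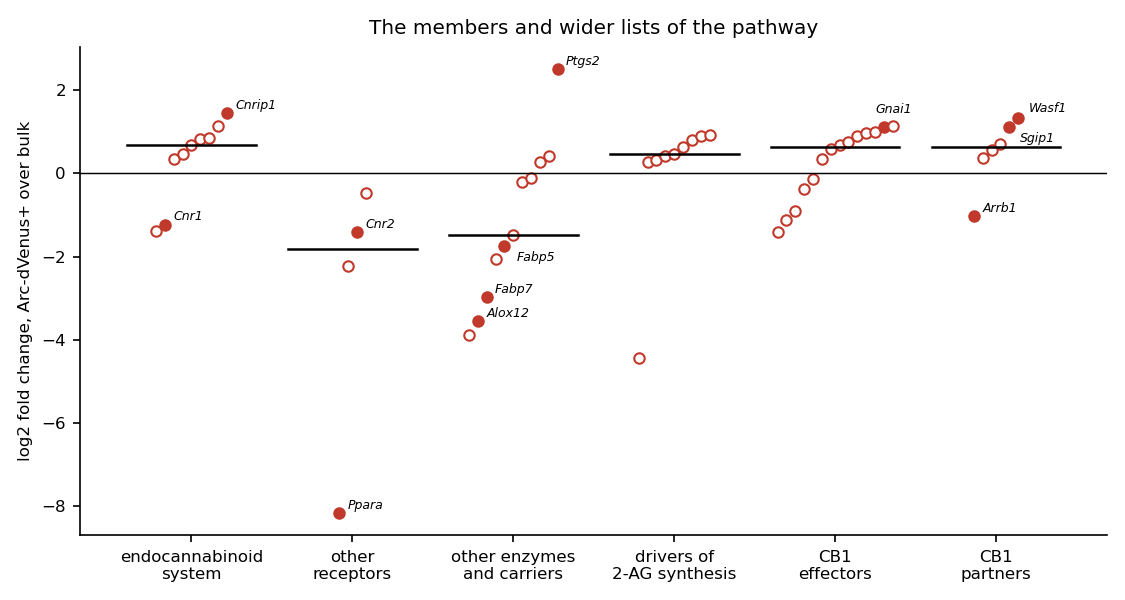
Log2 fold change of Arc-dVenus+ over bulk tissue (y axis) for the 9 genes and for 5 lists of related genes, with the median of each as a black line and genes past the test filled and named. The value of Ppara rests on 1 count in the 5 pools, and the medians run from -1.81 for other receptors to 0.68 for the 9 genes.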

How the data were processed

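Reads were mapped to mm9 with RUM by the authors, who deposited raw counts of uniquely aligned reads for 1 transcript variant per gene. The authors also deposited CPM, made by dividing by the library total, which held here to within 0.0005 CPM. Their fold change and p-value columns and 4 further sheets with subsets of genes were not used. Cells were few and cDNA was amplified (Ovation RNA-Seq V2), so counting error is only part of the spread. The p-values measure the spread between libraries, 1 per animal. Differences between animals cannot be told apart there from those of cell sampling and amplification.

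Counts were tested with edgeR 4.0.16 in R 4.3.3 (glmQLFit and glmQLFTest, TMM) over genes with at least 20 CPM in total. Alternatives used limma 3.58.1 and DESeq2 1.42.0, other scalings and filters, the condition as covariate, only the shock-only libraries, and leaving out each library. The fits were tested on simulated data. Intervals are 95%. Ratios of counts were compared by exact permutation. Figures were drawn with matplotlib 3.10.9 in Python 3.11.15. TMM factors were 0.90 to 0.97 in the pools and 1.10 to 1.13 in bulk tissue. Positions and lengths are from GENCODE M1.

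The 9 genes and all lists were chosen with earlier results of these data known. Named genes were the 9, up to 3 genes past the test per related list by lowest p, and at most 2 per marker list. Fabp5, the fourth of its list, genes under 2-fold (Grm5, Plcb1, Chrm3), and Plek, Gm16628 and Gm12709 for their overlap, were named after their values were seen. So were the markers Gad1, Gad2, Slc1a2, Slc1a3, Aqp4, C1qb, Itgam, Neurod2, Neurod6, Slc17a8 and Adarb2. These take the inhibitory, astrocyte and microglial lists past the limit per marker list.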

Additional observations from a re-analysis of the deposited data

How the results depend on the processing

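Of the 9 genes, 2 passed the test of Arc-dVenus+ cells against bulk tissue. The number was 4 with edgeR's exact test and 4 with DESeq2 (Cnr1, Cnrip1, Dagla and Mgll), 1 with library size alone, 0 in the shock-only libraries alone by edgeR, and 0 to 3 with 1 library left out. It was 1 without the FC bulk library and 0 without either shock-only bulk library, settings that leave fewer samples. At an unadjusted p under 0.05 edgeR had 3 of 9 genes in the shock-only libraries alone, 5 without bulk shock-only library 1 and 3 without library 2. No alternative turned the direction of any of the 9 genes in this comparison. Calls that were lost or gained stand beside each gene.

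The comparison of FC with shock-only pools gave 0 calls among the 9 genes under all 9 alternatives. Cnr1, Mgll and Abhd6 kept their direction in each, with log2 fold changes of -0.77 to -0.15, 0.24 to 2.43 and -0.85 to -0.26 when 1 pool was left out. For the other 6 the direction turned with the pool left out, and the log2 fold change was -1.19 to 0.33 for Cnrip1, -0.60 to 0.71 for Dagla, -0.61 to 0.36 for Daglb, -0.11 to 1.08 for Faah, -0.51 to 0.22 for Napepld and -0.34 to 0.22 for Abhd12. The lone pool left in a group was then assumed to vary like the others. With 1 library left out, the log2 ratio of Mgll to Dagla differed by -3.12 to -2.0, that of Napepld to Faah by 0.24 to 0.89, that of Dagla to Daglb by -0.028 to 0.54 and that of Abhd6 to Abhd12 by -0.039 to 0.32.

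No paired analysis was possible because the pools and the bulk tissue are described as coming from separate groups of mice. With 5 pools of few cells and 3 bulk-tissue libraries, 95% intervals of the 9 log2 fold changes against bulk tissue spanned 0.94 to 2.13 from end to end, which limits the size of change that could be seen.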
